A study of Mus musculus with 18 samples.

Results

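The genes described here encode the machinery that turns inactive precursors of peptide hormones and other secreted or surface proteins into their mature forms. There were 9 of them among the 24111 genes in the deposited count table, taken by symbol: Furin, Pcsk5, Pcsk6 and Pcsk7 (proprotein convertases), Cpe and Cpd (carboxypeptidases), Pam (the amidating enzyme), and Scg5 and Pcsk1n (small proteins that bind convertases). All 9 had a row in both the count and the FPKM table. Scg5 and Cpe were chosen by their fold changes in dDAVP libraries 1 to 3 against control libraries 1 to 3, so the treatment differences of all 9 in those libraries, and over all 18 libraries, are given as a description without a test.

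RNA was sequenced from mpkCCD cells, an immortalised line of mouse collecting duct cells that resemble principal cells. Cells were kept without serum for 24 h and then given 0.1 nM dDAVP (desmopressin, an agonist of the vasopressin V2 receptor) or left without it for a further 24 h. There were 9 dDAVP and 9 control libraries, numbered 1 to 9 in each treatment, and both treatments shared the line and the serum-free period. The labels do not say whether the libraries came from separate cultures, so the p-values below measure only the spread between these libraries, nor do they say what set the libraries 1 to 3, 4 to 6 and 7 to 9 apart.

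Prohormone processing runs in a fixed order. In the trans-Golgi network and in secretory granules, a proprotein convertase cuts the precursor after a basic motif, a carboxypeptidase trims the basic residues that the cut leaves at the end, and Pam amidates peptides whose end is then a glycine. Endocrine cells use Pcsk1 and Pcsk2 with Cpe in regulated granules, whereas most other cells use Furin, Pcsk5, Pcsk6 and Pcsk7 with Cpd in the constitutive pathway. In the collecting duct, furin is known for cutting subunits of the epithelial sodium channel.

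Vasopressin acts on principal cells through cAMP, and the cAMP response element is the classical sequence bound by CREB. The promoters of the members were therefore searched for its half-site, TGACG, which reads CGTCA on the other strand, and for the full element, TGACGTCA, on both strands; each full element also holds a half-site on each strand. RefSeq start sites on GRCm38.p6 gave 300-base windows for 8 of the 9 members, from 250 bases before the start to 50 after it. The member without a window was Cpe, whose promoter was therefore not searched. The half-site was present in 20.8% of all 32851 windows and the full element in 1.79%. The Scg5 window, at chr2:113829042-113829341 on the minus strand, held 3 half-sites, which begin at -175, 19 and 40 with the start-site base as 0; 3 or more were present in 1.03% of windows. Of the 2 Furin windows, the one at chr7:80405387-80405686 on the minus strand held 2 half-sites, beginning at -126 and 29. These 2 windows are shown because they were the only ones among the members with a match. They read 5′ to 3′ with the half-sites in capitals.
Scg5: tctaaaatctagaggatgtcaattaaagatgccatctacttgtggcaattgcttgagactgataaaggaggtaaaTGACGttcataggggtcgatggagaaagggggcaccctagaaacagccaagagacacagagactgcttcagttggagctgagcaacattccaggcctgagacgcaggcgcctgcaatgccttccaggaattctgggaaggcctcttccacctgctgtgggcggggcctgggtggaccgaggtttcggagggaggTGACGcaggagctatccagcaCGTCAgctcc
Furin: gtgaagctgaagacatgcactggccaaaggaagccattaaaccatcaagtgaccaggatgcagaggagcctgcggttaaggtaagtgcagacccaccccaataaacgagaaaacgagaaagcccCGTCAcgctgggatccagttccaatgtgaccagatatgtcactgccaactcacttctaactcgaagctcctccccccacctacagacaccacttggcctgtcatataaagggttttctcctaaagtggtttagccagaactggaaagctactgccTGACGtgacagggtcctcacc
No member window held the full element, and a match describes the letters only.

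Several features of the libraries bear on every value below. The libraries held 22.2 to 105.9 M counted reads, and a count of 0 allows up to 3 counts, which is 0.01425 to 0.3589 normalised CPM depending on the library (CPM, counts scaled by the TMM-adjusted library total; the limit covers counting error only, as without molecular identifiers reads may be copies of one molecule). Aqp2, the water channel that vasopressin induces, ranged over 1050 to 2636, 161.8 to 1097 and 174.0 to 2756 normalised CPM in dDAVP libraries 1 to 3, 4 to 6 and 7 to 9, against 20.5 to 27.9, 27.3 to 48.2 and 10.8 to 251.2 in control libraries, so its levels overlapped in libraries 7 to 9 alone. In these last libraries dDAVP 7 correlated across genes more closely with control 8 (r = 0.96) than with dDAVP 8 (0.79) and dDAVP 9 (0.83). A control library was also closest in the other sets for dDAVP 1, dDAVP 4 and, by a narrow margin, dDAVP 6. For dDAVP 1 it was control 3 (0.988), against 0.978 with dDAVP 2 and 0.966 with dDAVP 3. For dDAVP 4 it was control 4 (0.947), against 0.906 with dDAVP 5 and 0.788 with dDAVP 6. For dDAVP 6 it was control 5 (0.8057), against 0.8047 with dDAVP 5. Cited1, the other gene looked at as a library check, had 2.25 to 4.79 normalised CPM in dDAVP libraries 7 to 9. In control libraries 7 to 9 it had 0 to 0.693, so it did not overlap as labelled, like 8.99% of genes in this set. The libraries dDAVP 7 and control 8 were used as labelled, and whether these labels are right was not tested. The library labelled dDAVP 6 stood apart, with ribosomal protein genes at 0.861% of its counts and a scaling factor of 0.306, against factors of up to 3.165 elsewhere. All 12 principal cell markers had counts, whereas the neuroendocrine markers Chga, Chgb, Neurod1 and Pcsk1 had 0 counts in all 18 libraries. Those with counts, Syp, Insm1 and Pcsk2, brought the sum of that list to at most 0.00475 normalised CPM in dDAVP libraries 7 to 9, against 0.0416 to 0.266 in control libraries 7 to 9, and it was 0 in all libraries 1 to 6. Intercalated cell markers summed to 1.37 to 9.31, 1.79 to 5.68 and 4.16 to 21.3 normalised CPM in dDAVP libraries of the 3 sets, against 0.474 to 0.901, 3.84 to 6.92 and 0.0519 to 13.9 in control libraries, with all 7 detected. Of 5 proximal tubule markers 3 were detected, with Slc5a2 and Slc5a12 at 0. They summed to 2.71 to 5.14, 1.49 to 10.9 and 0.788 to 4.72 normalised CPM in dDAVP libraries, against 6.17 to 8.22, 1.72 to 5.92 and 1.53 to 3.57 in control libraries. Principal cell markers, Aqp2 among them, summed to 1322 to 3116, 815.2 to 1505 and 320 to 3058 in dDAVP libraries. In control libraries they summed to 211.7 to 297.4, 344.9 to 492.1 and 161.5 to 446.3. In libraries 1 to 3 the intercalated, proximal tubule and principal cell sums did not overlap between treatments. Single genes without overlap there were 7.47% with dDAVP higher and 6.93% with dDAVP lower. A gene at 0 counts allows 0.135 to 0.183 normalised CPM in control libraries 1 to 3, against intercalated sums of 0.474 to 0.901. The part of these markers and library features in the results below was not tested, and in such bulk RNA fewer cells of a type and less RNA per cell cannot be told apart.

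Scg5 encodes secretogranin V, also called 7B2, a chaperone that binds the convertase Pcsk2 in the secretory pathway. The gene lies on chromosome 2 (113776362 to 113829121, minus strand, GRCm38, as are all positions below). It had 1.05, 2.66 and 2.31 normalised CPM in dDAVP libraries 1 to 3, from 23, 44 and 41 counts, against 0.0611, 0.158 and 0.0901 in control libraries 1 to 3, from 1, 3 and 2 counts. Every dDAVP library of this set lay above every control library, which was the case for 7.47% of the 8991 genes tested there. dDAVP over control gave a log2 fold change of 4.08 ± 0.56 (edgeR, SE, n = 3 each). It is one of the values by which the gene was chosen. At the adjusted p threshold of 0.05, edgeR called 41 of these 8991 genes (0.456%), Scg5 and Cpe among them, and nothing is read from that here. Neither gene was called without control 1, without control 2 or without control 3, where the log2 fold changes were 3.87, 4.55 and 3.94 for Scg5 and -1.57, -1.70 and -1.84 for Cpe. Over all 18 libraries edgeR called 8 of 10121 genes (0.079%), no member among them. DESeq2 called 31 genes, with Scg5 (3.63) among them. The voom fit with sample weights called 121 genes, with Scg5 (3.75) and Cpe (-1.36) among them. The 18 libraries include those by which the 2 genes were chosen, so nothing is read from these calls either.

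In libraries 4 to 6 Scg5 had 0.767, 0 and 2.15 normalised CPM in dDAVP cells, from 17, 0 and 18 counts, against 0, 0.0242 and 0 in control cells, from 0, 1 and 0 counts. dDAVP 4 and dDAVP 6 held nearly all of the signal, while dDAVP 5 was at 0 like 2 of the control libraries, so the groups overlapped; 9.76% of genes did not overlap in this set, in either direction. The gene did not pass the filter on low counts in this set. Over the 3 libraries of each group there were 35 counts against 1, a ratio of 46.7 after scaling with an exact 95% interval of 7.85 to 1897 that covers counting error only.

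In libraries 7 to 9 it had 1.20, 1.49 and 2.44 normalised CPM in dDAVP cells, from 166, 313 and 490 counts, against 0.509, 1.89 and 0.168 in control cells, from 49, 199 and 12 counts. The library labelled control 8 was above 2 of the 3 dDAVP libraries, so the groups overlapped as labelled. On this scale 8.99% of genes did not overlap here. The extent of the overlap depended on the scaling. In FPKM, control 8 (2.06) was above dDAVP 7 (1.28) alone, with dDAVP 8 at 3.84 and dDAVP 9 at 5.49. The log2 fold change of 0.99 ± 1.25 was not called by edgeR (adjusted p = 0.966); it was 2.24 without control 8 and 1.19 without dDAVP 7. Of all genes, edgeR called 0 of 10387 in libraries 4 to 6 (479 at an unadjusted p under 0.05, and 29 by DESeq2) and 0 of 11367 in libraries 7 to 9 (590 and 94).

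Libraries 4 to 9 did not serve to choose the genes, and in them the dDAVP effect was tested with the set of libraries as a term. Scg5 averaged 1.34 ± 0.90 normalised CPM in dDAVP cells and 0.432 ± 0.740 in control cells (SD, n = 6 each). The log2 fold change of 3.04 ± 1.50 missed the threshold over all 10761 genes (edgeR, unadjusted p = 0.0565, adjusted p = 0.972). No gene of the whole table was called in this fit (0 of 10761, 0%), although 484 had an unadjusted p under 0.05 and DESeq2 called 9. The groups did not overlap for 0.102% of genes in these 12 libraries, none of them a member. Without control 8 the log2 fold change of Scg5 was 3.97, and without dDAVP 6 it was 2.41. The value of 3.04 takes in libraries 4 to 6, where Scg5 had 35 counts in dDAVP cells and 1 in control cells. Libraries 7 to 9 alone gave a log2 fold change of 0.99. The summed counts of libraries 4 to 9, 1004 against 261, gave a plain ratio of 2.26 after scaling. The size of the change was therefore uncertain. The fitted change differed between libraries 7 to 9 and 4 to 6 by -5.30 ± 2.55 on the log2 scale, a value that rests on 1 count in control libraries 4 to 6 and was not called either (edgeR, adjusted p = 0.880). No gene was, with 607 at an unadjusted p under 0.05 and 81 called by DESeq2. Over all 18 libraries, described without a test, the log2 fold change was 3.40 ± 0.95.

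**Figure D1:**
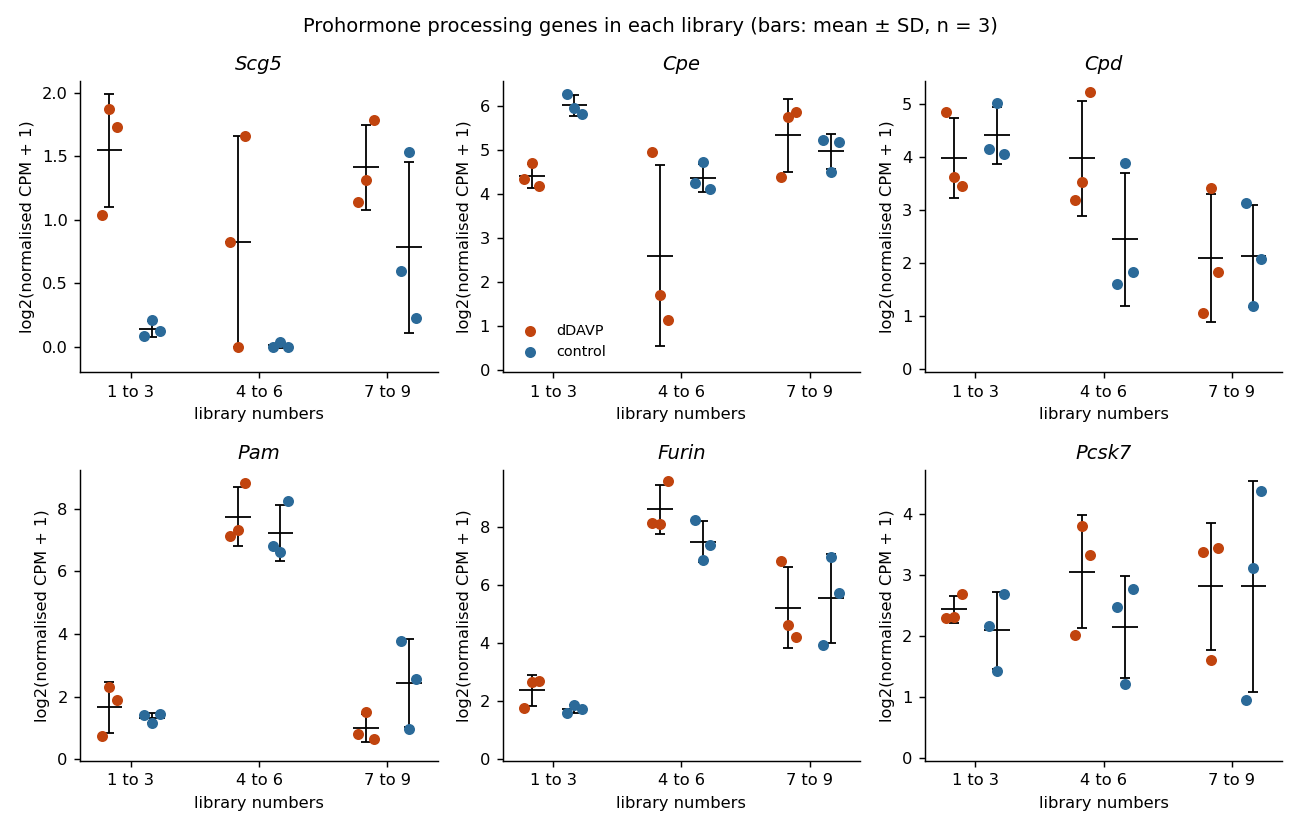
Each point is one library, as log2(normalised CPM + 1), in panels for the 6 members that passed the filter over 18 libraries; horizontal bars are the mean and vertical bars the SD of 3 libraries. In libraries 1 to 3 the dDAVP points lie above the control points for Scg5 and below them for Cpe, and in libraries 4 to 6 and 7 to 9 the groups overlap for every gene shown.

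Pcsk1n, which encodes proSAAS, an inhibitor of the convertase Pcsk1, had 0 counts in all 18 libraries (X chromosome, 7919822 to 7924410). The 2 convertases that these small proteins partner were also at or near 0. Pcsk1 had 0 counts throughout, and Pcsk2 had 29 counts in 2 libraries. Scg5 was counted in 15 of the 18 libraries.

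Cpe encodes carboxypeptidase E, the granule enzyme that removes basic residues from cut hormone precursors, and was the member with the highest FPKM, a level per transcript length, in 10 of the 18 libraries. It lies on chromosome 8 (64592542 to 64693054, minus strand). In libraries 1 to 3 it had 19.1, 25.0 and 16.96 normalised CPM in dDAVP cells, against 76.1, 60.3 and 54.7 in control cells. All 3 dDAVP libraries lay below all 3 control libraries, as for 6.93% of the genes tested in this set. The log2 fold change was -1.72 ± 0.27 (SE, n = 3 each), given as a description like that of Scg5.

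In the other sets the groups overlapped. In libraries 4 to 6 Cpe had 29.8, 2.26 and 1.20 normalised CPM in dDAVP cells, against 17.9, 25.2 and 16.1 in control cells, so that dDAVP 4 was the highest and dDAVP 5 and 6 the lowest of the set. This gave a log2 fold change of -0.95 ± 0.94 (edgeR, adjusted p = 0.999). In libraries 7 to 9 it had 19.7, 52.3 and 57.0 normalised CPM in dDAVP cells, against 35.9, 21.6 and 35.2 in control cells. Here dDAVP 8 and 9 were the highest and dDAVP 7 the lowest, with a log2 fold change of 0.42 ± 0.69 (edgeR, adjusted p = 0.967). Over libraries 4 to 9 Cpe averaged 27.0 ± 24.0 normalised CPM in dDAVP cells and 25.3 ± 8.5 in control cells (SD, n = 6 each). Its log2 fold change of -0.17 ± 0.63 was not called (edgeR, adjusted p = 0.992), and its sign was positive without dDAVP 5 (0.13), without dDAVP 6 (0.15) and with no set term (0.10). The difference of the effect between libraries 7 to 9 and 4 to 6 was 1.31 ± 1.23 and was not called (edgeR, adjusted p = 0.9998). Over all 18 libraries, without a test, the log2 fold change was -0.67 ± 0.48.

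Set side by side, Scg5 and Cpe thus moved in opposite directions in libraries 1 to 3, by which they were chosen. In libraries 4 to 9 the sign for Scg5 was positive in 23 of the 23 settings that gave a value (0.74 to 3.97, adjusted p between 0.393 and 1.00), and the gene gave none under a filter of 1 CPM in 6 libraries. For Cpe the sign was positive in 3 of 24 settings (-1.01 to 0.15). The settings are refits of the same libraries, so their signs are not independent and do not add up as evidence. Across the 18 libraries the correlation of log2 levels of the 2 genes was -0.12 as measured and -0.47 after the mean of each set was removed; it is a description over libraries that share treatment and scaling.

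**Figure D2:**
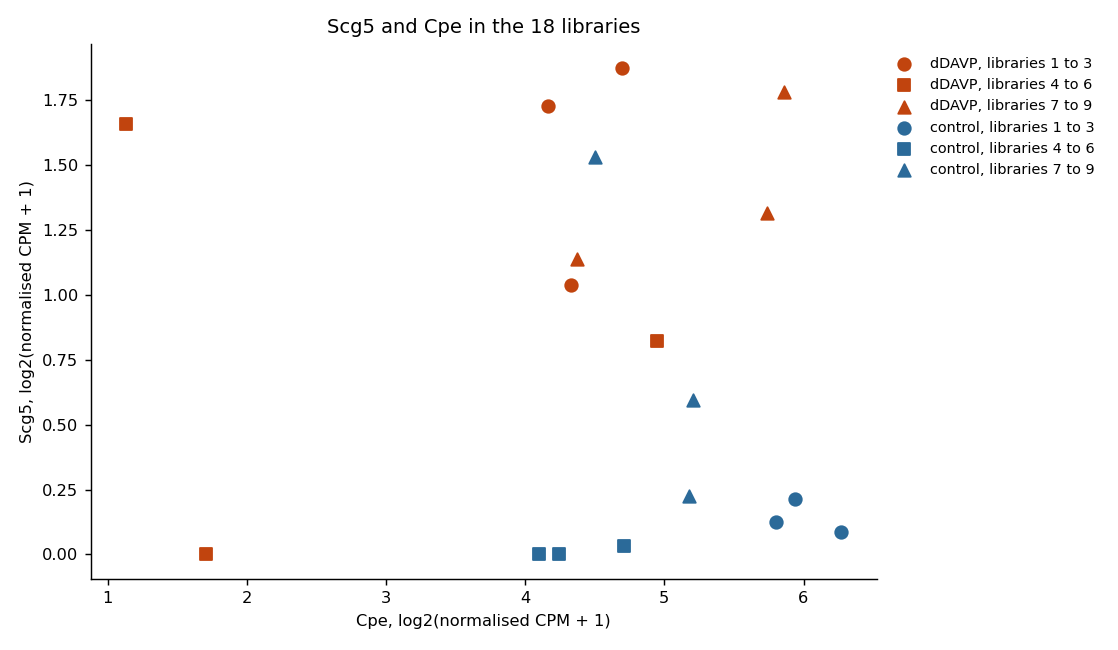
Scg5 against Cpe, each as log2(normalised CPM + 1), with 1 point per library, coloured by treatment and shaped by set. The control libraries 1 to 3 sit at the lower right, with Cpe at 54.7 to 76.1 normalised CPM and Scg5 at 0.158 or less, while the dDAVP libraries spread over the range of Cpe.

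Cpd encodes carboxypeptidase D, a membrane enzyme that trims basic residues in the trans-Golgi network of most cells (chromosome 11, 76778424 to 76847018, minus strand). It had 27.9, 11.4 and 9.97 normalised CPM in dDAVP libraries 1 to 3, against 16.7, 31.3 and 15.6 in control libraries. Its levels in libraries 4 to 6 were 8.08, 10.6 and 36.0 in dDAVP cells, against 2.05, 13.8 and 2.57 in control cells. Those in libraries 7 to 9 were 1.08, 9.72 and 2.54 in dDAVP cells, against 7.75, 1.29 and 3.22 in control cells. The groups overlapped in each set, and libraries of the same group differed by several fold. Over libraries 4 to 9 the log2 fold change was 0.83 ± 0.73 (edgeR, adjusted p = 0.972), against 0.00 as the median of all genes.

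Pam encodes peptidylglycine alpha-amidating monooxygenase, which turns a terminal glycine into an amide (chromosome 1, 97795114 to 98095646, minus strand). It had 0.686, 3.99 and 2.70 normalised CPM in dDAVP libraries 1 to 3, against 1.65, 1.21 and 1.71 in control libraries. Libraries 4 to 6 gave 138, 157 and 455 in dDAVP cells, against 111, 97.4 and 301 in control cells. Libraries 7 to 9 gave 0.759, 1.81 and 0.562 in dDAVP cells, against 12.7, 0.968 and 4.93 in control cells. Levels of both treatments in libraries 4 to 6 lay above all others, and the treatments overlapped in each set. Pam overlaps B230216N24Rik on the same strand, to which 405 counts were assigned in all, and it is uncertain how reads of the shared stretch were assigned.

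Pam had the smallest p of the members in a single set that was not used to choose them. In libraries 7 to 9 its log2 fold change was -2.61 ± 1.11 (edgeR, unadjusted p = 0.0342, adjusted p = 0.938), and it was -1.32 without control 7, the library with the highest level. Its effect in libraries 7 to 9 differed from that in libraries 4 to 6, where the log2 fold change was 0.56 ± 0.66, by -3.11 ± 1.20 (edgeR, unadjusted p = 0.0182, adjusted p = 0.788). Neither value passed the threshold, and over libraries 4 to 9 the log2 fold change was -1.01 ± 0.77 (edgeR, adjusted p = 0.972). With no set term that last value was 0.50.

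Furin encodes the ubiquitous convertase of the trans-Golgi network (chromosome 7, 80388585 to 80405436, minus strand), whose promoter window with 2 half-sites is printed above. It had 2.38, 5.38 and 5.47 normalised CPM in dDAVP libraries 1 to 3, against 2.02, 2.64 and 2.30 in control libraries. Libraries 4 to 6 held 282, 271 and 755 in dDAVP cells, against 300, 115 and 165 in control cells. Libraries 7 to 9 held 111, 23.5 and 17.6 in dDAVP cells, against 14.2, 123 and 51.9 in control cells. The highest normalised CPM was that of dDAVP 6, the library with the smallest scaling factor, whereas in FPKM dDAVP 5 was highest with 62.9, against 54.7 in dDAVP 6. The treatments overlapped in each set. Over libraries 4 to 9 the log2 fold change was 0.43 ± 0.62 (edgeR, adjusted p = 0.991).

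Pcsk7 encodes a widely expressed convertase that is related to furin (chromosome 9, 45906497 to 45929726, plus strand). It overlaps Rnf214 and Tagln on the opposite strand, and the strand setting of the counting is not stated, so its counts are uncertain. It had 3.93, 3.99 and 5.47 normalised CPM in dDAVP libraries 1 to 3, against 3.48, 1.69 and 5.45 in control libraries. Libraries 4 to 6 had 3.07, 13.1 and 9.09 in dDAVP cells, against 4.57, 1.30 and 5.82 in control cells. Libraries 7 to 9 had 9.44, 2.05 and 9.92 in dDAVP cells, against 0.925, 7.72 and 19.8 in control cells. The treatments overlapped in each set, and over libraries 4 to 9 the log2 fold change was 0.35 ± 0.72 (edgeR, adjusted p = 0.991).

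The other 2 convertases were at or near 0. Pcsk5, which cuts growth factor precursors of the TGF-beta family (chromosome 19, 17432319 to 17837632, minus strand), had 1 count in dDAVP 7, against 1 count in each of control 7, control 8 and control 9, and 0 counts in the other 14 libraries. The ratio of these counts after scaling was 0.165 with an exact 95% interval of 0.00315 to 2.06. Pcsk6, also called PACE4 (chromosome 7, 65861734 to 66050386, plus strand), had 0 counts in all 18 libraries. Of the 4 convertases among the members, Furin and Pcsk7 were counted in all 18 libraries.

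**Figure D3:**
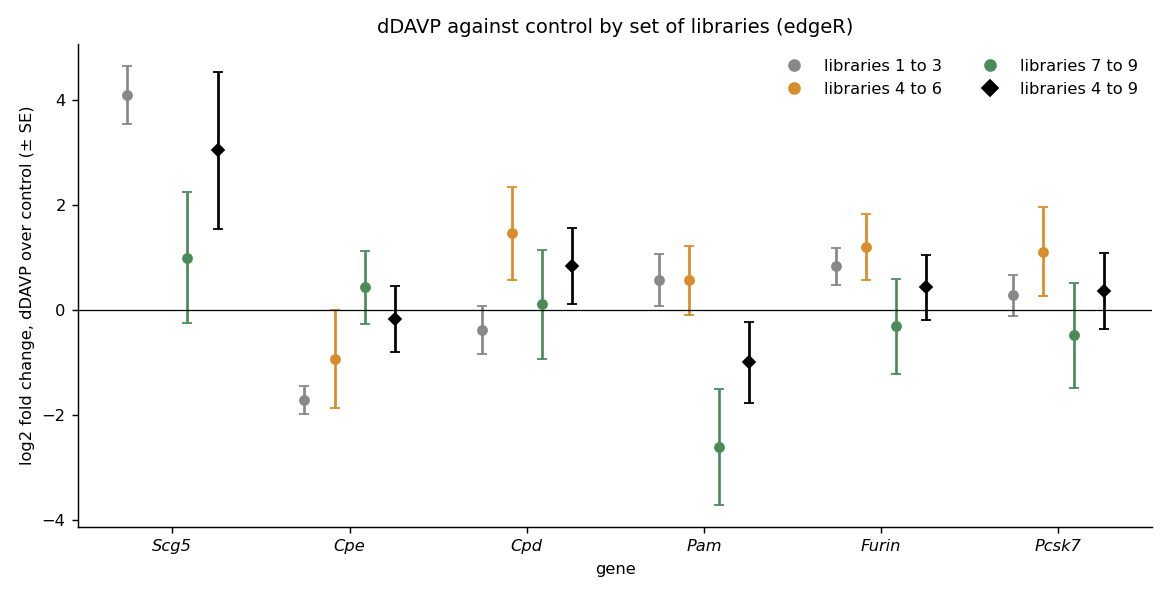
The log2 fold change of dDAVP over control with its SE for the 6 members, by set of libraries and for libraries 4 to 9 together (edgeR, diamonds). The values of libraries 1 to 3 for Scg5 (4.08) and Cpe (-1.72) are those by which the genes were chosen, and none of the values of libraries 4 to 9 passed an adjusted p of 0.05; Scg5 has no fitted value in libraries 4 to 6.

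Per transcript length, the order of the members depended on the set. In libraries 1 to 3 Cpe led with 7.44 ± 1.68 FPKM in dDAVP cells and 23.1 ± 2.0 in control cells (SD, n = 3 each), and no other member averaged above 2 FPKM in either treatment. In libraries 4 to 6 Furin and Pam led. Furin averaged 53.8 ± 9.6 FPKM in dDAVP cells and 36.1 ± 2.7 in control cells, and Pam 31.2 ± 8.2 in dDAVP cells and 37.2 ± 27.5 in control cells, so the 2 genes did not differ beyond their spread in control cells. In libraries 7 to 9 Cpe averaged 55.5 ± 37.5 FPKM in dDAVP cells and 24.4 ± 13.7 in control cells, and Furin 21.1 ± 11.8 in dDAVP cells and 20.3 ± 16.4 in control cells, with spreads that overlapped in both treatments. Furin was the highest member in 7 libraries and Pam in 1.

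Furin and Pam also differed between sets within one treatment. Within control libraries alone, edgeR called 4128 of 11005 genes (37.5%) between libraries 4 to 6 and 1 to 3, 2202 of them higher and 1926 lower, with a median log2 fold change of 0.41 over all genes. Scaled by library totals instead, the calls were 2651 higher and 1207 lower, and the median was 0.85. Against this background Furin was higher in control libraries 4 to 6 than in 1 to 3 by 6.11 ± 0.79 on the log2 scale (edgeR, adjusted p = 6.41e-05) and Pam by 6.53 ± 0.91 (edgeR, adjusted p = 0.000117). In dDAVP libraries the same contrast gave 6.55 ± 0.91 for Furin (edgeR, adjusted p = 0.000177) and 6.61 ± 0.93 for Pam (edgeR, adjusted p = 0.00018). Over the 15 settings tried, of which 1 was this contrast in dDAVP libraries, the value ranged over 5.69 to 6.55 for Furin and 5.87 to 7.03 for Pam. With a control library left out, the control value was 5.69 to 6.36 for Furin and 5.87 to 6.81 for Pam. Genes of like length had a median of 0.65 (Furin) and 0.66 (Pam) in this contrast, and these genes lay at the 97.04 and 97.55 percentile of them.

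In control libraries 7 to 9 against 1 to 3, 5397 genes (49.0%) were called, 3138 higher and 2259 lower, with a median log2 fold change of 0.43; with library totals these were 4700 higher and 673 lower, with a median of 1.70. Furin was again higher, by 4.53 ± 0.73 (edgeR, adjusted p = 0.000351) in control libraries, and by 3.33 ± 0.79 in dDAVP libraries (edgeR, adjusted p = 0.00693). Cpd was lower by log2 -2.59 ± 0.85 in control libraries (edgeR, adjusted p = 0.0216), but the call did not hold without control 2 (-2.19), without control 8 (-2.17), without control 9 (-2.50) or with library totals (-1.07). Pam at 1.82 ± 0.75 (edgeR, adjusted p = 0.0590) and Pcsk7 at 1.27 ± 0.90 (edgeR, adjusted p = 0.256) did not pass the threshold; in dDAVP libraries Pam was at -1.31.

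In control libraries 7 to 9 against 4 to 6, 3340 genes (30.3%) were called, 1942 higher and 1398 lower, and 3259 higher and 745 lower with library totals, for which the median moved to 1.13 against 0.30. Pam was lower by log2 -4.72 ± 0.83 in control libraries (edgeR, adjusted p = 0.000856) and by log2 -7.93 ± 0.98 in dDAVP libraries (edgeR, adjusted p = 9.58e-05). Furin was at -1.58 ± 0.64 in control libraries (edgeR, adjusted p = 0.0778), which passed without control 8 (-2.40), and was lower by log2 -3.22 ± 0.78 in dDAVP libraries (edgeR, adjusted p = 0.00927). Thus Pam was high in libraries 4 to 6 of both treatments, and Furin was low in libraries 1 to 3 of both.

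Cpe differed between sets as well, but the control libraries 1 to 3 took part in its choice, so its contrasts with them are described without a test. Its log2 fold change was -1.91 ± 0.48 in control libraries 4 to 6 against 1 to 3 and -1.24 ± 0.47 in control libraries 7 to 9 against 1 to 3, where library totals gave 0.08. In dDAVP libraries the same contrasts gave -1.06 and 0.92. Scg5 was too low for this fit: it had 0, 1 and 0 counts in control libraries 4 to 6 and 49, 199 and 12 in control libraries 7 to 9, against 1, 3 and 2 in control libraries 1 to 3.

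**Figure D4:**
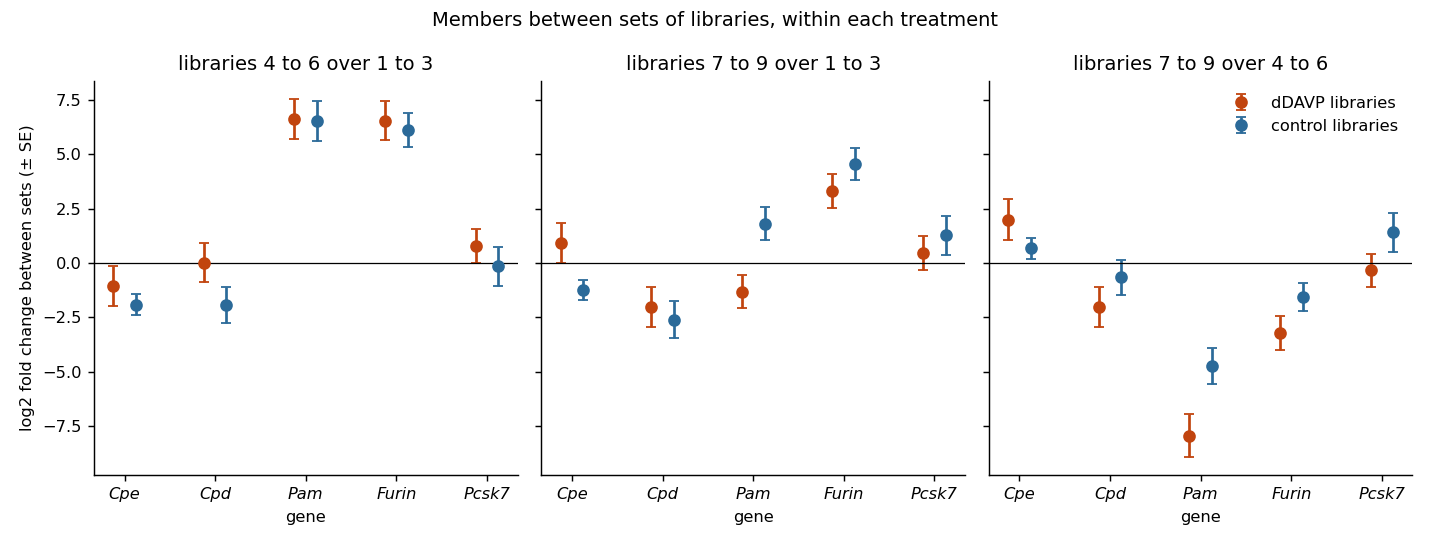
The log2 fold change between sets of libraries with its SE (edgeR) for 5 members, within dDAVP libraries and within control libraries. Pam and Furin lie above 5 in libraries 4 to 6 over 1 to 3 in both treatments, and Pam lies below -4 in libraries 7 to 9 over 4 to 6 in both.

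Other measures of the libraries differed between the sets as well. The 4 epithelial markers, all detected, summed to 10510 to 18190, 1216 to 2163 and 3201 to 5910 normalised CPM in dDAVP libraries 1 to 3, 4 to 6 and 7 to 9, and to 11280 to 16530, 1002 to 1612 and 3640 to 8483 in control libraries. The ribosomal protein share of counts was 20.8 to 28.6%, 0.861 to 6.86% and 10.2 to 16.03% in dDAVP libraries 1 to 3, 4 to 6 and 7 to 9, and 23.3 to 28.8%, 5.80 to 10.2% and 14.1 to 16.1% in control libraries. The part of either in the levels of Furin and Pam was not tested. Across the 18 libraries the log2 levels of Pam and Furin correlated with r = 0.76, and with r = -0.02 once the mean of each set was removed. Furin and Pcsk7 had r = 0.56 after removal of the set means, and Cpe and Furin r = -0.62; these are descriptions over libraries that share scaling.

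The genes whose log2 levels followed Scg5 most closely over the 18 libraries, after removal of the set means and among 9354 genes, were Nme6 (r = 0.92), Aqp5 (0.83), Tspan33 (0.81), Neurl1b (0.81) and Gstm1 (0.79). Nme6 belongs to the nucleoside diphosphate kinase family and Aqp5 is a water channel of secretory epithelia. Cpe was followed most closely by Hmgn2 (r = 0.87), a nucleosome-binding protein, Oas2 (0.85), an interferon-induced enzyme, Tyw3 (0.84), Birc5 (0.82), an inhibitor of apoptosis active in dividing cells, and D3Ertd254e (0.81). The correlations include the treatment difference by which Scg5 and Cpe were chosen.

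The other genes of the pathway were put into 4 lists. None of their genes was called in dDAVP against control in libraries 4 to 9, as for all 10761 genes. Of 18 other processing enzymes, 10 were tested, with 4 positive and 6 negative log2 fold changes and a median of -0.29 against 0.00 over all genes. The 2 with the highest level were Ctsl (cathepsin L, a lysosomal protease) and Mbtps1 (the site-1 protease of the Golgi). Ctsl averaged 298 ± 82, 36.0 ± 4.3 and 56.0 ± 35.1 normalised CPM in dDAVP libraries of the 3 sets, against 358 ± 8, 32.7 ± 7.1 and 28.0 ± 14.3 in control libraries (SD, n = 3 each). Mbtps1 averaged 59.0 ± 12.3, 47.0 ± 11.3 and 126 ± 43 normalised CPM in dDAVP libraries, against 49.8 ± 6.4, 49.0 ± 9.6 and 63.4 ± 35.3 in control libraries. Ctsl was thus highest in libraries 1 to 3 of both treatments.

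Of 18 granins and secretory granule genes, 6 had 0 counts in all libraries, among them Chga, Chgb, Scg2 and Scg3, the core granins of endocrine granules. The 6 that were tested had a median log2 fold change of 0.40. Rab3d, a small GTPase of secretory vesicles, averaged 8.52 ± 2.24, 8.71 ± 3.51 and 29.0 ± 6.7 normalised CPM in dDAVP libraries of the 3 sets, against 7.27 ± 1.33, 14.8 ± 4.0 and 23.8 ± 13.3 in control libraries. Vgf, a granin-like precursor, was at 0 in all 3 dDAVP libraries 7 to 9, against 2.31 to 31.5 normalised CPM in control libraries 7 to 9, where 8.99% of genes did not overlap. Vgf was not called in this set (edgeR, adjusted p = 0.145) or over libraries 4 to 9 (edgeR, adjusted p = 0.991). Its highest level in libraries 4 to 6 was 2.80 in dDAVP cells and 0.384 in control cells.

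Of 33 peptide hormone precursors, 19 had 0 counts in all libraries and 5 were tested, with a median log2 fold change of -0.79. The 2 most abundant were Adm2, the precursor of intermedin, and Nucb2, the precursor of nesfatin. Adm2 averaged 0.682 ± 0.324, 0.570 ± 0.527 and 22.4 ± 25.5 normalised CPM in dDAVP libraries of the 3 sets, against 0.475 ± 0.298, 1.16 ± 0.33 and 36.5 ± 26.3 in control libraries. Nucb2 averaged 10.0 ± 2.2, 6.14 ± 3.21 and 1.21 ± 0.98 normalised CPM in dDAVP libraries, against 4.92 ± 1.03, 6.45 ± 5.65 and 3.37 ± 3.92 in control libraries. Most of the listed precursors thus had no counts in any library.

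All 29 genes of the list of furin-type substrates had counts, and 27 were tested, 11 with a positive and 16 with a negative log2 fold change and a median of -0.12. The most abundant were Notch2, a receptor cut in the Golgi, and Cdh1 (E-cadherin). Notch2 averaged 10.2 ± 7.2, 2845 ± 1779 and 3.83 ± 2.91 normalised CPM in dDAVP libraries of the 3 sets, against 11.9 ± 9.8, 1605 ± 1193 and 2.67 ± 1.71 in control libraries. Cdh1 averaged 1372 ± 200, 49.3 ± 20.8 and 97.2 ± 45.98 normalised CPM in dDAVP libraries, against 2389 ± 190, 60.1 ± 22.1 and 94.7 ± 56.6 in control libraries. Notch2, like Pam, was high in libraries 4 to 6 of both treatments. For the sodium channel subunits that furin cuts, the log2 fold change over libraries 4 to 9 was -0.27 ± 0.46 for Scnn1a (edgeR, adjusted p = 0.991) and 1.82 ± 1.20 for Scnn1g (edgeR, adjusted p = 0.972).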

How the data were processed

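One deposited table gives raw whole-number counts by gene symbol for each library. The other gives FPKM values, for which the authors divided these counts by gene length, the same in every library, and by the reads counted in the library. STAR 2.4.0.1, SAMtools, HTSeq and mouse build mm10 were used, per the submitters' processing notes. The annotation release and strand setting are not given in the sources used here. Per the labels' protocols, 20 ng of RNA and single-end reads of 50 bases were used. The protocols name 2 ways of preparing libraries, one with a kit for low input and one as for single cells, and do not assign libraries to them.

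Libraries were grouped by the names in the labels. The counts were tested with edgeR 4.0.16 quasi-likelihood fits (TMM, filterByExpr, Benjamini-Hochberg adjusted p under 0.05 over all genes kept, two-sided), in R 4.3.3. SE was the log2 fold change divided by the root of the F value. Normalised CPM are CPM of the TMM-scaled library total. Alternatives were RLE and library-total scaling, no filter or 1 CPM in 6 libraries, DESeq2 1.42.0, limma 3.58.1 (voom with sample weights, and log2 of FPKM plus 1 or 0.1), no set term, the replicate number as a block and each library left out; the set contrasts within dDAVP libraries were added after seeing the data. The count fits were tested on simulated data. Positions are from GENCODE M21 on GRCm38, and promoters from RefSeq on GRCm38.p6.

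The members, the lists, the tests and the rule for naming genes were chosen with earlier results of these data known. All 9 members are named. From each list the rule takes up to 3 genes called in libraries 4 to 9, or else the 2 with the highest mean level, and for Scg5 and Cpe the 5 genes with the most like pattern, leaving out predicted genes, RIKEN clones, small RNAs and means under 1 CPM. Aqp2, Cited1, Scnn1a and Scnn1g were named beside this rule, the first 2 as checks of the libraries and the others as known furin substrates. One gene of the marker lists is not reported here.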

Additional observations from a re-analysis of the deposited data

Results flagged for a closer look

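Scg5 in control 8 lay apart from the other 8 control libraries, at 1.89 normalised CPM; the next highest control library had 0.509. It was the only value found apart among 12 groups checked, and chance alone gives about 1 in 20 groups if their libraries are alike. For Scg5 they were not, as all control libraries 7 to 9 lay above those of 1 to 3 and 4 to 6. The part of this set difference was not tested. Control 8 has 199 Scg5 counts, and it is also the library that correlated most closely with dDAVP 7 across genes (r = 0.96). Whether the labels of these 2 libraries are right was not tested. Without control 8, the log2 fold change of Scg5 in libraries 7 to 9 was 2.24, against 0.99 with it.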

How the results depend on the processing

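No member was called in dDAVP against control in libraries 4 to 9 under any setting that gave a value. Of the counts of called genes, that of libraries 4 to 9 was 0 and became 1 with library totals, 13 with no filter, 9 with DESeq2, 5 with voom weights and 3 on log2(FPKM + 0.1). That of libraries 1 to 9 was 8, became 5 with library totals, 31 with DESeq2, 121 with voom weights, 0 with no set term, 1 with the replicate block, 4 on either log2(FPKM + 1) or log2(FPKM + 0.1) and 3 without a filter on FPKM, and was 4 to 9 with a library left out, 4 without dDAVP 8. That of libraries 1 to 3 was 41, became 207 with no filter, 123 with DESeq2 and 101 with the replicate block, and was 13 to 774 with a library left out: 14, 13 and 15 without control 1, 2 or 3, 774 without dDAVP 1 and 24 without dDAVP 2. That of libraries 4 to 6 was 0, became 1 with library totals or no filter and 29 with DESeq2, and was 0 to 2 with a library left out, 2 without dDAVP 6. That of libraries 7 to 9 was 0, became 7 with library totals, 30 with no filter, 94 with DESeq2 and 3 with the replicate block, and was 0 to 98 with a library left out: 98 without dDAVP 7, 6 without control 7 and 1 without dDAVP 8 or 9. The difference between libraries 7 to 9 and 4 to 6 was called for 0 genes, then 1 with library totals, 36 with no filter and 81 with DESeq2. Control libraries 4 to 6 against 1 to 3 gave 2544 to 5108 calls with a library left out, fewest without control 1 (2728), 2 (2544) or 3 (2614). Where a library was left out, the spread was pooled over the others. The cause of these changes was not tested.

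Signs turned for the following log2 fold changes. With library totals, Pam in libraries 4 to 6 was -0.25, Furin and Pcsk7 in libraries 7 to 9 were 0.055 and 0.38, and Cpd in the difference of effects was 0.35. In the control contrasts with library totals, Pcsk7 (4 to 6 against 1 to 3) was 0.22, Cpe (7 to 9 against 1 to 3) 0.078 and Cpd (7 to 9 against 4 to 6) 0.20. With no set term, Cpe and Pam in libraries 4 to 9 were 0.10 and 0.50. In dDAVP libraries in place of control libraries, Cpd and Pcsk7 (4 to 6 against 1 to 3) were 0.013 and 0.78, Cpe and Pam (7 to 9 against 1 to 3) 0.92 and -1.31, and Pcsk7 (7 to 9 against 4 to 6) -0.33. With a library left out, Cpe in libraries 4 to 9 ranged over -1.01 to 0.15, Pam in libraries 4 to 6 over -0.29 (without dDAVP 6) to 1.23, and in libraries 7 to 9 Cpd over -1.29 to 1.19, Furin over -1.60 to 0.53 and Pcsk7 over -0.86 to 0.72. Between control sets, Pcsk7 (4 to 6 against 1 to 3) ranged over -0.55 to 0.29 and Cpd (7 to 9 against 4 to 6) over -1.45 to 0.82.

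Within sets, equal replicate numbers were not seen to pair the libraries. After removal of the mean of each treatment in each set, deviations of equal numbers correlated with r of -0.71 to 0.43. In this check 1 of 9 control libraries correlated best with its own number. With only the mean of each treatment removed, r was 0.40 to 0.93, which includes the differences between sets. With the replicate number as a block, Cpd in libraries 7 to 9 was -0.25, Scg5 in libraries 4 to 9 was 2.58, and no member was called. The comparison of Scg5 in libraries 4 to 6 rests on 35 counts in dDAVP cells and 1 in control cells.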
